A study of Mus musculus with 20 samples.

Results

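Classical monocytes are the Ly6C-high monocytes of blood that enter tissues, and here they were taken from interscapular brown adipose tissue (iBAT) of mice as single cells with a fixed rule on transcript counts. A cell was a member when the summed counts of Ly6c2, Chil3 and Plac8 were at least 5, Ly6c2 was at least 2 and Csf1r plus Ccr2 was at least 1. It also had to hold under 2 counts of C1qa plus C1qb, under 1 of Retnlg plus Cxcr2, under 2 of the nonclassical genes Cd300e, Ace, Adgre4 and Treml4 together, and under 1 of Cd79a, Cd3e and Siglech together. The rule found 3218 members among 50165 kept cells of the lineage-marker positive (Lin+) fraction, which is 6.41% of them. Kept cells had under 10% mitochondrial counts, under 15000 counts and 500 to 4000 genes. Because the members were selected on measured counts, the levels of its 16 genes are given as a description only and entered no count of changed genes.

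Stromal vascular cells of iBAT had been split with magnetic beads into a Lin+ and a lineage-marker negative fraction, and the 10 Lin+ libraries of the 20 in the series are used here. Male C57BL/6J mice were held at room temperature (RT, 24 °C), kept in the cold at 6 °C for 4 days, or given the β3-adrenergic agonist CL316,243 (CL) by osmotic pump over 4 days at 0.75 nmol per hour, with 2 libraries per group. Female mice homozygous for floxed Adrb1, without (WT) or with (KO) a Pdgfra-CreER allele, were held at RT or at 6 °C for 4 days, with 1 library per genotype and temperature. Each library pooled the digested tissue of 3 to 4 mice aged 8 to 14 weeks, so the p-values below measure the spread between pools. WT and KO mice all received tamoxifen. The Cre acts in Pdgfra-expressing stromal cells, so the deletion was not directed at monocytes. The separation kit holds antibodies to CD11b and to Gr-1, which binds Ly-6G and Ly-6C, so the sort itself selects classical monocytes. The RT libraries of the Adrb1 line were made with kit version 3 and all other libraries with version 2, and the treatments of that line were collected on different days, so kit, day and temperature cannot be told apart within it.

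Classical monocytes leave the bone marrow through the receptor Ccr2, follow its ligands such as Ccl2 and Ccl7 into tissue, and there either return to the circulation or turn into macrophages and antigen-presenting cells. In adipose tissue, monocyte-derived macrophages take up lipid and cell debris, and a state rich in Spp1, Gpnmb, Trem2 and lysosomal genes is known from tissue with dying or remodelled adipocytes. Type I interferon acts through a receptor present on nearly all cells and turns on a common set of antiviral genes, many of which carry an interferon-stimulated response element near their start.

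Of the 5 markers of the label, the rule did not read Vcan, which encodes the matrix proteoglycan versican. It was at 23.8 to 262 CPM in the members and at 2.01 to 53.8 CPM in all other kept Lin+ cells. CPM is the count of a gene divided by the summed count of the monocytes of a library and scaled as counts per 1e6. The ratio within a library was 13.3 on average over the 10 libraries, with a range of 3.93 to 36.0. Among genes with a mean of at least 100 CPM in the members, a limit that lets in genes high in them, the next highest ratios were those of AI839979 (9.0), Dmkn (8.79), Hp (6.57), Fn1 (6.26), Ifitm6 (6.15), F10 (6.11), Mgst1 (5.76) and Thbs1 (5.69), of which Hp encodes haptoglobin, Fn1 fibronectin and F10 coagulation factor X. Vcan stood lowest in the C57 RT libraries, with 27.9 and 23.8 CPM. Of the genes of the rule, Ly6c2 was at 1259 to 2674 CPM in monocytes against 103 to 468 CPM in the other cells, Chil3 at 886 to 5685 against 30.1 to 1288, and Plac8 at 3039 to 8604 against 448 to 1846. Ccr2 was at 678 to 1872 CPM against 217 to 351.

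Many cells missed a single condition of the rule, more of them in cold. Among cells that failed on Ly6c2 alone, the highest Ly6c2 count was 1.87 to 1.98 per library, and the lowest in a member was 2.02 to 2.94. The median Ly6c2 count of the cells that failed was 0 in every library except C57 RT replicate 2 (0.567) and WT RT (0.913). Most of them were therefore not close to the limit. The lowest sum of Ly6c2, Chil3 and Plac8 in a member was 5.11 to 8.56, against a highest of 2.77 to 4.98 in cells that failed on this sum alone. The cells that failed on Ly6c2 alone numbered 86 and 87 in the C57 RT libraries, 848 and 686 in C57 cold, 316 and 109 under CL, 54 and 18 in WT and KO RT, and 923 and 283 in WT and KO cold. In every cold library of C57 mice they outnumbered the members. Cells that failed on C1q alone, the complement genes that mark tissue macrophages, numbered 7 and 18 in C57 RT, 191 and 146 in C57 cold, 99 and 39 under CL, 1 and 4 in WT and KO RT, and 159 and 55 in WT and KO cold. In cold their median C1qa plus C1qb count was 21.8 and 28.5 in C57 and 8.13 and 15.9 in WT and KO, against a limit of 2.

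The members' summed counts per library ranged from 228134 to 4630110, from 34 cells (KO RT) to 990 cells (WT cold), and their median depth from 2929 to 6791 counts per cell. Between 1.10% and 7.33% of the members were among the 6% of cells with the highest doublet scores of their library. These shares were 1.10% to 4.85% at RT, 5.21% to 7.33% in cold, and 3.74% and 6.48% under CL, so all cold libraries lay above all RT libraries. Pairs of libraries shared 0 to 142 cell barcodes, with a median of 48 over 45 pairs, which is at most 1.59% of the smaller library. Adrb1, the deleted gene, had 1 count in the monocytes of WT cold and was at 0 in the other 9 libraries, so its level in these cells does not check the genotype labels. Adrb3, the receptor that CL stimulates, was at 0 in all 10 libraries.

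Monocytes made up a larger part of the Lin+ fraction after cold than at RT. Their shares were 2.78% and 3.69% in C57 RT, 2.87% and 1.55% in WT and KO RT, 7.37% and 4.89% in C57 cold, 12.1% and 12.0% in WT and KO cold, and 5.69% and 4.24% under CL. Every cold library lay above every RT library, and both CL libraries lay above all RT libraries. Over both lines the mean was 9.09% ± 3.57 (SD, n = 4) in cold and 2.72% ± 0.883 (SD, n = 4) at RT, a 3.34-fold difference of 6.37 percentage points. With 4 against 4 libraries, p = 0.0286 was reached in the exact permutation test (no smaller p is possible), and 0.0857 after Benjamini-Hochberg adjustment over the 3 share comparisons, which does not pass 0.05. The test exchanged libraries without regard to line, though the lines differed in sex and in the kit of their RT libraries. Within C57 mice the difference was 2.90 points for cold and 1.73 points for CL, each with an exact permutation p of 0.333, the smallest that 2 against 2 libraries allow.

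**Figure D1:**
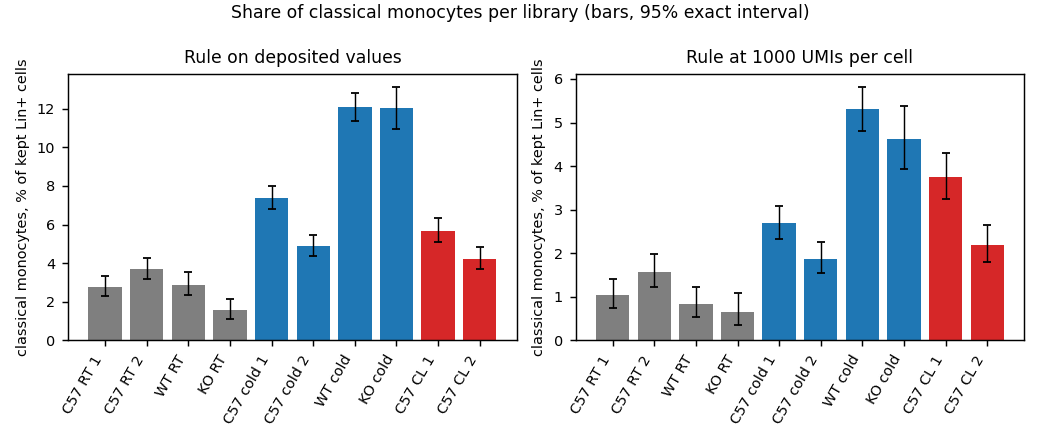
Bars give the share of classical monocytes among kept Lin+ cells (% of cells) per library with the exact 95% binomial interval, by the rule on the deposited counts (left) and on counts thinned to 1000 per cell (right); RT is grey, cold blue and CL red. In both panels all 4 cold bars stand above all 4 RT bars, at 4.89% to 12.1% against 1.55% to 3.69% on the left.

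Since a rule on counts finds more members in deeper cells, the shares were also taken after every cell was thinned to 1000 counts. They were then 1.04% and 1.56% in C57 RT, 0.83% and 0.65% in WT and KO RT, 2.69% and 1.87% in C57 cold, 5.30% and 4.62% in WT and KO cold, and 3.75% and 2.20% under CL. All cold shares again exceeded all RT shares. Against cells with a Csf1r count instead of all Lin+ cells, the difference over both lines was 11.5 points and the exact permutation p was 0.0571. There cold and RT overlapped, with C57 cold replicate 2 at 8.73% and WT RT at 10.1%. For CL the order was not kept either. Against Csf1r cells the CL shares were 4.33% and 9.69% and the RT shares of both lines 5.06% to 10.1%. Without the minimum of 500 genes CL replicate 2 was at 3.25% and C57 RT replicate 2 at 3.27%. Shares are of a sorted fraction and say nothing of the number of monocytes per tissue.

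Gene expression was compared on the counts of all monocytes of a library summed. In C57 mice 404 genes were higher (5.22%) and 340 lower (4.39%) in cold than at RT, together 9.6%, among 7746 genes tested outside the rule (edgeR quasi-likelihood test, adjusted p under 0.05). For 38.4% of the genes tested each cold library exceeded each RT library, so that separation alone is a weak criterion with 2 libraries a group. These counts lean on single libraries: without C57 RT replicate 1 the same test called 1 gene, without C57 cold replicate 1 it called 98, without C57 RT replicate 2 it called 190 and without C57 cold replicate 2 it called 324, each of those fits with a lone library in its group. With monocytes chosen at 1000 counts per cell it called 348 genes. Over both lines, with the line as a term, 1180 genes were higher (15.2%) and 1252 lower (16.1%) of 7773, in all 2432 (31.3%), and without WT RT 1455 and without WT cold 1597.

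Interferon response genes rose in the monocytes after cold. Of 29 measured in C57 mice, 22 were higher, none was lower and the median log2 change was 1.35, beside 0.0025 over all genes tested. Over both lines 22 of 29 were higher with a median of 1.43. Within the Adrb1 line 17 of 28 were higher, 16 of them among the genes called in C57. Of all genes tested in both lines, 24.9% were higher and 18.6% lower in cold in the Adrb1 line.

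Ifit3, an antiviral effector that binds foreign RNA together with Ifit1, was at 36.5 and 55.9 CPM in C57 RT and at 369 and 280 CPM in C57 cold. In the Adrb1 line it was at 51.8 (WT) and 43.7 (KO) at RT and at 92.6 (WT) and 404 (KO) in cold, and under CL at 108 and 92.5. Every cold and CL library lay above every RT library, WT cold least of the cold ones, and the log2 change in C57 was 2.65 ± 0.26 (SE, edgeR adjusted p = 0.0025). Isg15, a ubiquitin-like protein joined to other proteins in antiviral defence, was at 169 and 186 CPM in C57 RT, 1561 and 756 in C57 cold, 133 and 96.2 in WT and KO RT, 479 and 1420 in WT and KO cold, and 597 and 339 under CL. Its RT and cold levels did not overlap in either line, with a log2 change in C57 of 2.57 ± 0.37 (edgeR adjusted p = 0.0063). Rsad2, which encodes viperin, gave 2.74 ± 0.39 (adjusted p = 0.0063), from 42.9 and 60.1 CPM to 504 and 260. Irf7, the transcription factor that amplifies the interferon response, rose by 1.90 ± 0.32 (adjusted p = 0.0109).

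Cxcl10, an interferon-induced ligand that draws T cells, was at 38.6 and 55.9 CPM in C57 RT, 990 and 315 in C57 cold, 16.6 and 17.5 in WT and KO RT, 250 and 1794 in WT and KO cold, and 240 and 68.9 under CL. The cold libraries differed among themselves by more than the RT libraries did, KO cold and C57 cold replicate 1 being the highest, while none overlapped with RT (3.64 ± 0.63, adjusted p = 0.0118). Of 13 genes that respond mainly to interferon gamma, 2 rose in C57, the GTPases Igtp and Irgm1. None fell, 11 of the 13 were above 0 and the median was 0.78. Over both lines 5 of 14 were higher and 1 lower with a median of 0.55, beside 15.2% and 16.1% of all genes. Within the Adrb1 line 5 of 13 were higher and 1 lower with a median of 0.063, beside 24.9% and 18.6%.

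The promoters of these genes are shown because the response element can be read in them. Among the 22 interferon response genes called in C57, 16 had a promoter sequence in RefSeq (GRCm38.p6, 250 bases before to 50 after the start), and 8 of the 16 (50%) held the motif GAAA, any 2 bases, GAAA on either strand. The same motif stood in 3.99% of 27025 genes with a promoter sequence and in 4.45% of 6173 genes tested in monocytes with one. A match is a run of letters and not a shown site of binding. For 6 of the 8 a window of 60 bases is given, 5′ to 3′ on the strand of the gene, with matches to the motif or to its reverse complement (TTTC, any 2 bases, TTTC) in capitals.
Ifit3 (chr19:34583348-34583407, plus strand): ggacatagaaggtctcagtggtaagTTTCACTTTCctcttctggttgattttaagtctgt
Ifit1 (chr19:34640760-34640819, plus strand): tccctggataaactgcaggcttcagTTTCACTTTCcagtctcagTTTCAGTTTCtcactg
Isg15 (chr4:156200862-156200921, minus strand): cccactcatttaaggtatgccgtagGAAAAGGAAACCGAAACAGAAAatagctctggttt
Rsad2 (chr12:26456538-26456597, minus strand): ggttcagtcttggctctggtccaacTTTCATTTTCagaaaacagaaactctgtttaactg
Cxcl10 (chr5:92349068-92349127, minus strand): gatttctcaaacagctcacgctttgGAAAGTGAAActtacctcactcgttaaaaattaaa
Oas3 (chr5:120777700-120777759, minus strand): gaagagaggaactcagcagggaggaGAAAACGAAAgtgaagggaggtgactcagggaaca
The first match began 156 bases before the start of Ifit3, 104 before that of Ifit1, 78 before that of Isg15, 120 before that of Rsad2, 213 before that of Cxcl10 and 75 before that of Oas3. In Isg15 matches overlap and form a single run. Ifit3b holds the same window as Ifit3, and reads of these near-identical copies may not be told apart. Their log2 changes of 2.65 (Ifit3) and 2.41 (Ifit3b, adjusted p = 0.0402) are therefore not separate results. Oas3, an RNA sensor, rose least of the 6, by 0.84 ± 0.23 (adjusted p = 0.0481).

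Per cell, the interferon response depends on the depth at which it is read. At 1000 counts per cell, a monocyte was counted when the 29 genes had at least 5 counts together, and T cells of the same library (at least 2 counts of Cd3d, Cd3e and Cd3g together) give the level in another cell type. The share was 15.04% and 15.2% in C57 RT, 34.1% and 29.4% in WT and KO RT, 67.2% and 50.3% in C57 cold, 35.7% and 55.5% in WT and KO cold, and 43.1% and 28.2% under CL. The WT cold share lay just above the highest RT share, and the others stood well apart. The mean was 52.2% ± 13.1 (SD, n = 4) in cold and 23.4% ± 9.79 (SD, n = 4) at RT, a difference of 28.8 points with an exact permutation p of 0.0286, or 0.0857 adjusted over 3 such shares. Without thinning 91.4% to 95.6% of monocytes in the cold libraries and 62.8% to 94.5% at RT passed the same limit, a difference of 14.6 points with p = 0.114 in the exact permutation test, and with a stricter rule for monocytes 28.5 points with p = 0.0571.

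T cells also had more such cells in cold, with 1.83% and 2.62% in C57 RT against 23.6% and 16.2% in C57 cold, and 4.22% and 3.34% in WT and KO RT against 7.44% and 13.6% in cold. The monocyte shares stood above those of T cells in all 10 libraries. T cells carry the interferon receptor too, so theirs is not a level without a response.

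**Figure D2:**
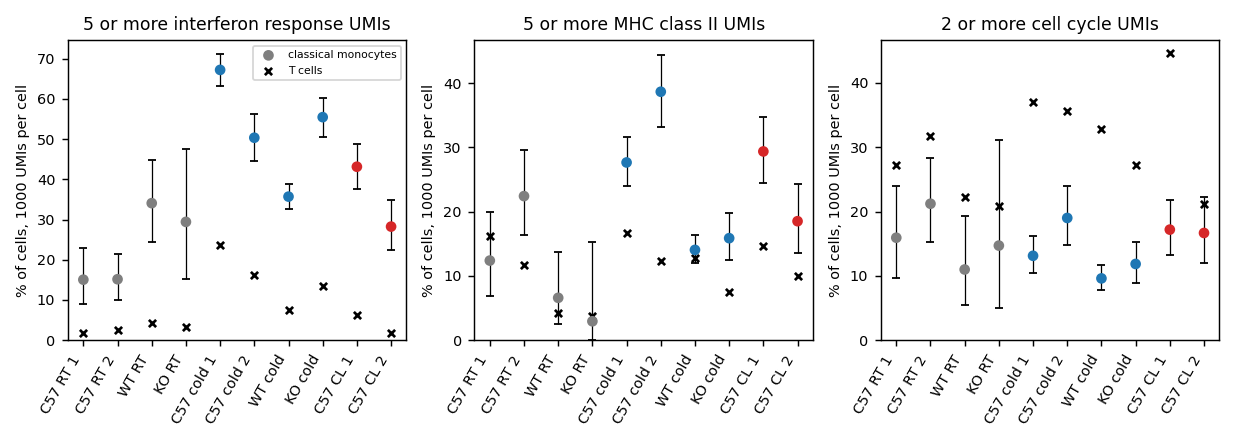
Points give the share of classical monocytes (% of cells, each thinned to 1000 counts, with the exact 95% binomial interval) that hold at least 5 interferon response counts, at least 5 MHC class II counts or at least 2 cell cycle counts, per library; crosses give T cells. Interferon shares of monocytes are 35.7% to 67.2% in cold and 15.04% to 34.1% at RT, while cell cycle shares of monocytes lie below those of T cells in every library.

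Of 16 measured chemokine ligands and receptors in C57, 9 were higher in cold and none was lower, with a median log2 change of 2.60, and over both lines 13 were higher. Among the called genes in C57 were the ligands Ccl2, Ccl3, Ccl4, Ccl7, Ccl8, Ccl12, Cxcl2 and Cxcl16.

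Ccl2, the main ligand of Ccr2, was at 79.3 and 164 CPM in C57 RT, 1983 and 1553 in C57 cold, 79.5 and 61.2 in WT and KO RT, 3021 and 2818 in WT and KO cold, and 828 and 229 under CL. Cold and RT stood far apart in both lines, with CL replicate 2 near the upper RT level (3.72 ± 0.51, adjusted p = 0.0062). Ccl7, another Ccr2 ligand, was at 2.14 and 43.3 CPM in C57 RT, 1455 and 859 in C57 cold, 0 in both WT and KO RT, 1562 and 1253 in WT and KO cold, and 514 and 76.2 under CL. It was nearly absent at RT except in C57 RT replicate 2 (5.40 ± 0.92, adjusted p = 0.0113). At 1000 counts per cell, 19.0% to 25.2% of monocytes in the 4 cold libraries held a Ccl7 count, against 3.61% to 6.69% of T cells.

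Ccl4, a ligand that attracts monocytes and T cells, was at 94.4 and 208 CPM in C57 RT, 1963 and 1248 in C57 cold, 238 and 149 in WT and KO RT, 1658 and 1659 in WT and KO cold, and 684 and 433 under CL. The groups did not overlap (3.27 ± 0.38, adjusted p = 0.0033). Cxcl2, which attracts neutrophils, rose from 133 and 105 CPM to 2059 and 1382 in C57, and under CL it was as high in replicate 1 (2280) as in cold but only 332 in replicate 2.

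Genes of lipid-handling macrophages rose in cold as well. In C57 mice 11 of 17 measured were higher and none lower, with a median log2 change of 1.72, and over both lines 14 of 16 were higher with a median of 2.13. The summed level of the 18 listed genes was 4076 to 4587 CPM in the 4 RT libraries, 10662 to 14336 in the 4 cold libraries and 6711 and 5272 under CL. In the other kept Lin+ cells it was 2426 to 3251 at RT, 9934 to 22292 in cold and 21711 and 7704 under CL. How far RNA of those cells contributes to the level in monocytes was not tested.

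Spp1, which encodes the secreted protein osteopontin, was at 2.14 and 5.59 CPM in C57 RT, 0 in WT and KO RT, 1578 and 445 in C57 cold, 1620 and 1382 in WT and KO cold, and 696 and 43.5 under CL. It was all but absent at RT and high in every cold library (7.76 ± 1.41, adjusted p = 0.0137). The 5 RT counts in C57 give a pooled ratio of 277 with a counting interval of 118 to 852. A minority of cells carried it: at 1000 counts per cell 20.04% and 11.0% of monocytes in C57 cold and 22.9% and 19.7% in WT and KO cold held a Spp1 count, against 3.27% to 5.01% of T cells, and the tenth of monocytes with the most Spp1 held 84.5% to 97.8% of its counts.

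Gpnmb, a membrane glycoprotein of lysosome-rich macrophages, was at 2.14 and 0 CPM in C57 RT, 0 in WT and KO RT, 160 and 227 in C57 cold, 96.8 and 57.7 in WT and KO cold, and 34.2 and 2.72 under CL. Cold was higher in both lines (7.54 ± 1.03, adjusted p = 0.0061). Cells with a Gpnmb count were 5.45% to 9.0% of monocytes and 1.41% to 4.85% of T cells in cold, and the part of free RNA in this level was not tested. Plin2, which coats lipid droplets, was at 142 and 183 CPM in C57 RT, 1051 and 831 in C57 cold, 257 and 206 in WT and KO RT, 1002 and 760 in WT and KO cold, and 409 and 340 under CL. All RT libraries lay below all others, with CL in between (2.39 ± 0.24, adjusted p = 0.0027).

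Ctsd, a lysosomal protease, rose by 2.61 ± 0.31 (adjusted p = 0.0033) from 94.4 and 197 CPM to 1043 and 928, and Ctsb by 1.72 ± 0.28 (adjusted p = 0.0106). The lipoprotein lipase gene Lpl gave 1.29 ± 0.21 (adjusted p = 0.0106), the fatty acid transporter Cd36 2.53 ± 0.42 (adjusted p = 0.0104), and the fatty acid binding protein gene Fabp5 2.59 ± 0.58 (adjusted p = 0.0256). Trem2, the lipid-sensing receptor of this state, was at 92.2 and 64.3 CPM against 124 and 148 and did not pass in C57 (0.67 ± 0.28, adjusted p = 0.149), while it passed over both lines (0.71 ± 0.21, adjusted p = 0.0212).

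Of 18 macrophage genes outside the rule, 8 rose in C57 and none fell, with a median of 1.66, or 1.56 when genes at 0 at RT are set to their bound. Cd63, a protein of late endosomes, was at 4.29 and 8.39 CPM in C57 RT, 376 and 270 in C57 cold, 9.24 and 0 in WT and KO RT, 182 and 118 in WT and KO cold, and 70.4 and 25.4 under CL. The levels of RT, CL and cold followed each other without overlap (5.44 ± 0.49 for cold against RT in C57, adjusted p = 0.0025). In thinned cells under CL, Cd63 was found in 3.75% and 4.17% of monocytes, against 3.85% and 4.36% of T cells. The CL level was thus not set apart from that of T cells. In C57 cold the shares were 15.2% and 10.7% against 4.55% and 3.10%. In WT and KO cold they were 9.71% and 7.58% against 7.04% and 3.52%. The scavenger receptor gene Msr1 (1.59 ± 0.31, adjusted p = 0.0179), the Fc receptor gene Fcgr1 (2.71 ± 0.36, adjusted p = 0.0055) and Ms4a7 (3.57 ± 0.37, adjusted p = 0.0027) rose as well. The complement receptor genes C3ar1 (5.55 ± 0.80, adjusted p = 0.0063) and C5ar1 (4.21 ± 0.42, adjusted p = 0.0027) also rose, C5ar1 from 19.3 and 16.8 CPM to 394 and 333. The summed level of the macrophage list was 1666 to 2379 CPM at RT and 4302 to 5608 in cold, while in the other Lin+ cells of the cold libraries it was 5158 to 15196. How far RNA of macrophages in the same droplets or free in the suspension contributes was not tested.

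MHC class II genes, which present antigen to helper T cells, were higher in cold with more scatter. In C57 4 of 8 rose and none fell, with a median of 1.36, and over both lines 6 of 8 rose with a median of 1.77. H2-Ab1 was at 622 and 1969 CPM in C57 RT, 3893 and 6138 in C57 cold, 237 and 91.8 in WT and KO RT, 1539 and 1632 in WT and KO cold, and 2344 and 1764 under CL. C57 RT replicate 2 lay above both cold libraries of the Adrb1 line, so the groups overlapped across lines but not within a line (1.83 ± 0.45 in C57, adjusted p = 0.0342). In thinned cells H2-Ab1 was found in 13.4% of WT cold monocytes against 12.3% of T cells, and in KO cold in 13.3% against 8.98%. At RT these shares were 5.49% against 4.52% in WT and 2.94% against 3.66% in KO. How far such background enters the rise over both lines was not tested. Cd74, the chaperone of these molecules, was at 1662 and 5021 CPM against 8138 and 10565 and missed the threshold in C57 (1.37 ± 0.41, adjusted p = 0.0656), while it passed over both lines (2.21 ± 0.45, adjusted p = 0.0036).

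The share of monocytes with at least 5 counts of 4 MHC class II genes was 12.4% and 22.4% in C57 RT, 6.59% and 2.94% in WT and KO RT, 27.7% and 38.7% in C57 cold, 14.1% and 15.9% in WT and KO cold, and 29.4% and 18.5% under CL. T cells, which should lack these transcripts, gave 16.2%, 11.7%, 4.22% and 3.82% at RT and 16.7%, 12.4%, 12.9% and 7.57% in cold in the same order of libraries. In C57 RT replicate 1, WT and KO RT and WT cold the monocyte share was thus below or close to the T cell share and is read as background. The difference of 12.98 points between cold and RT had an exact permutation p of 0.114 (0.171 adjusted). Of the monocytes past the MHC class II limit, 65.4% and 48.3% in C57 cold also passed the interferon limit, against 67.9% and 51.6% of the other monocytes. In WT cold these shares were 35.3% against 35.8%, and in KO cold 74.6% against 51.8%. Under CL they were 52.1% against 39.4% in replicate 1 and 37.5% against 26.1% in replicate 2. No test across cells was made.

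Dendritic cell genes outside the rule were measured beside these, since dendritic cells make MHC class II molecules. In C57 2 of 13 were higher (Tnip3 and Xcr1) and none lower, with a median of 0.55, beside 5.22% and 4.39% of all genes. Few cells held Xcr1: in thinned cells of C57 cold it was found in 0.887% and 1.67% of monocytes. In T cells of these libraries it was found in 0.303% and 0.516%. Over both lines 3 of 12 were higher and 1 lower with a median of 0.86, beside 15.2% and 16.1% of all genes. Within the Adrb1 line 7 of 12 were higher with a median of 1.58, beside 24.9% of all genes tested in both lines. The list summed to 310 to 722 CPM at RT and 501 to 1131 in cold, so the groups overlapped. Its part in the MHC class II levels was not tested.

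**Figure D3:**
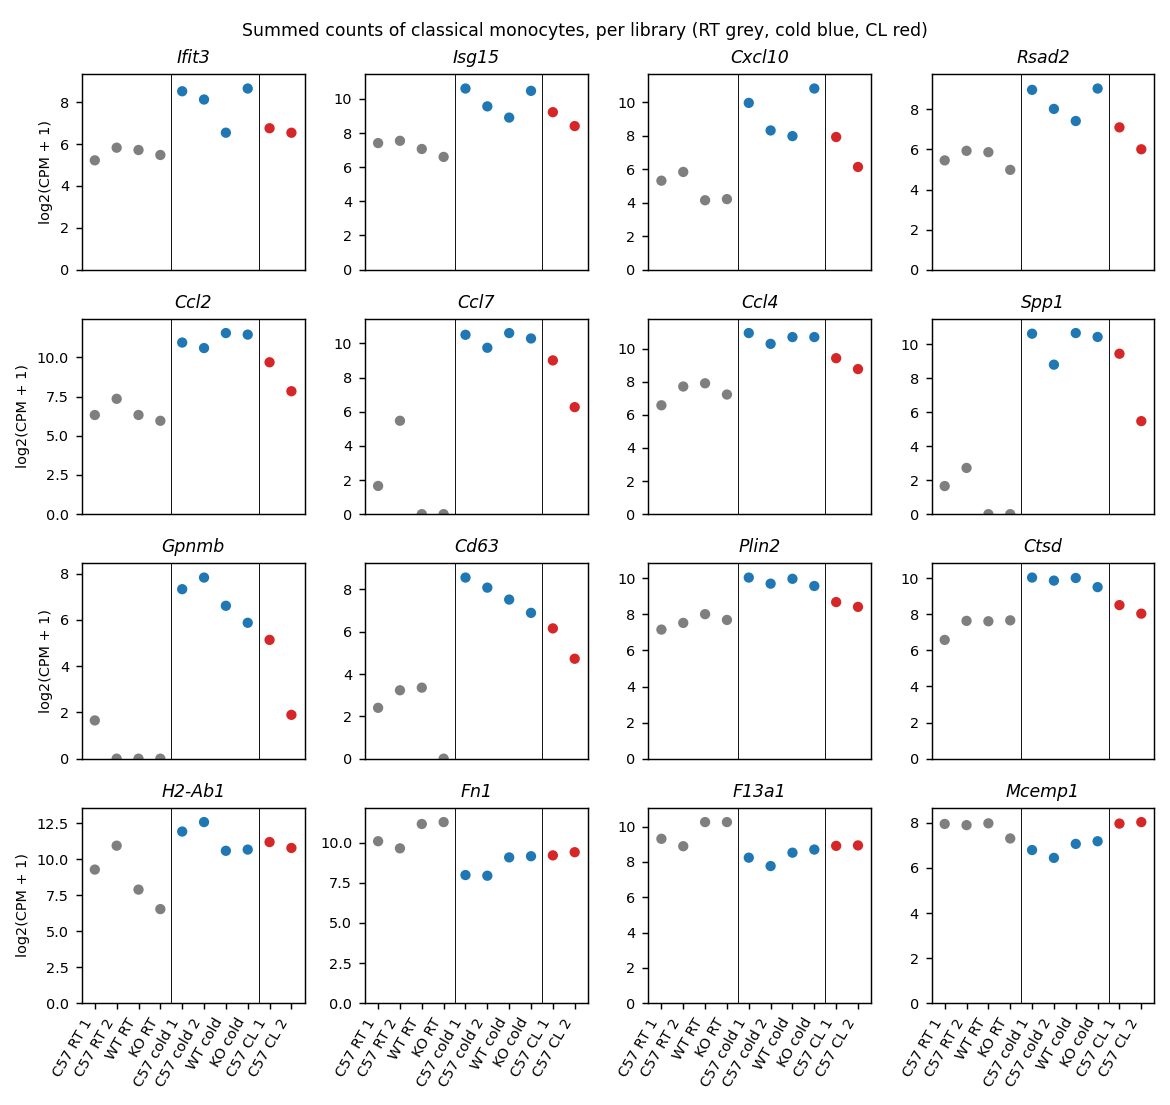
Each panel plots log2(CPM + 1) of a gene in the summed counts of classical monocytes, a point per library, with RT in grey, cold in blue and CL in red. Spp1 and Gpnmb go from near 0 at RT to higher levels in all cold libraries, as does Ccl7 except for 43.3 CPM in C57 RT replicate 2, H2-Ab1 overlaps across lines, and Fn1, F13a1 and Mcemp1 are lower in cold.

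Among genes called in C57 with a mean of at least 20 CPM in a group and no overlap between the groups, those with the largest rise by the fitted change were Syngr1, Il4i1, Mmp12, Spp1, Gpnmb, Ccl8, C3ar1, Cd63, Ccl7, Nt5dc2, Cd72 and Xcr1. Syngr1, Il4i1 and the macrophage elastase gene Mmp12 had no count in the C57 RT libraries, and set against 3 counts over that group they were at least 15-fold, 11.6-fold and 9.49-fold higher in cold. Few cells held a count of them: at 1000 counts per cell Mmp12 was found in 1.95% and 0.667% of monocytes in C57 cold and in 1.82% and 1.55% of T cells. With means of 0.0284 and 0.0133 Mmp12 counts per monocyte, these shares cannot tell few cells from a low level in many. In C57 cold replicate 1 the shares of Syngr1 (2.48% against 2.73%), Cd72 (6.38% against 5.76%) and Ccl8 (1.77% against 1.52%) were also at or near those of T cells. In C57 cold replicate 2 they lay above them, with 3.33% against 0.688%, 8.33% against 5.34% and 2% against 0.861%. Il4i1 was found in 2.84% and 1.67% of monocytes in C57 cold, against 1.82% and 1.03% of T cells. In WT and KO cold it was found in 0.506% and 0.948%, against 0.812% and 0%. Shares at or near those of T cells are read as background, also where Mmp12 and Ccl8 are counted among the lipid-handling and chemokine genes. For Syngr1, Cd72 and Ccl8 the replicates thus differed.

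Genes of the classical monocyte state moved in both directions. Of 20 such genes outside the rule, 6 fell and 3 rose in C57, with a median of -0.53. Within the Adrb1 line 10 rose and 3 fell with a median of 0.47, beside 24.9% higher and 18.6% lower of all genes tested in both lines. The list thus has no common direction. Fn1 was at 1092 and 803 CPM in C57 RT, 252 and 245 in C57 cold, 2299 and 2497 in WT and KO RT, 542 and 571 in WT and KO cold, and 592 and 679 under CL. It was lower in cold in both lines, with a log2 change of -2.08 ± 0.28 (adjusted p = 0.0060) in C57 and -1.66 ± 0.12 (adjusted p = 5.85e-05) in the Adrb1 line. F13a1, the A chain of coagulation factor XIII, was at 633 and 473 CPM in C57 RT against 301 and 216 in cold, and at 1220 in both RT libraries of the Adrb1 line against 367 and 414. It fell in both lines, by 1.24 ± 0.27 (adjusted p = 0.0255) on the log2 scale in C57.

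Other members of the list differed between the lines. Hp, Ifitm6 and Msrb1 fell in C57, with changes of -1.07, -1.23 and -1.21, but Ifitm6 (0.92, adjusted p = 0.0008) and Msrb1 (0.52, adjusted p = 0.0090) rose in the Adrb1 line. Vcan rose in C57 (2.13 ± 0.53, adjusted p = 0.0361) and gave 0.25 (adjusted p = 0.212) in the Adrb1 line, where it was at 262 and 219 CPM at RT with kit version 3. Ly6a, a surface protein induced by interferon, rose in both lines, from 25.7 and 53.1 CPM to 553 and 689 in C57 and from 5.54 and 4.37 to 166 and 370 in the Adrb1 line.

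Of the 12 measured genes of nonclassical monocytes, the patrolling class that lacks high Ly6C, none rose and 3 fell in C57 (Itgal, Pou2f2 and Pglyrp1), with a median of -0.72. Within the Adrb1 line 4 were higher and 4 lower, with a median of 0.23. Of all genes tested in both lines, 24.9% were higher and 18.6% lower there. The cytokine receptor list held 13 measured genes, and the receptors Il17ra (-1.85 ± 0.27, adjusted p = 0.0069) and Il6ra (-1.28 ± 0.25, adjusted p = 0.0184) fell. The integrin gene Itga4 fell by 1.13 ± 0.20 (adjusted p = 0.0129). By the same rule the genes with the largest fall in C57 were Retnla, Pabpc1l, Fcrls, Il6, Nfe2, Mtus1, Megf9, F5, Fry, Ccdc180, Rxra and Insr. Among them were Retnla, a secreted product of alternatively activated cells (77.2 and 243 CPM against 3.94 and 5.75), the transcription factor genes Nfe2 (45.0 and 54.5 against 8.24 and 7.02) and Rxra (30.0 and 25.2 against 5.01 and 7.02), and the insulin receptor gene Insr. Retnla varied widely in the Adrb1 line, with 322 and 4.37 CPM in WT and KO RT and 91.6 and 11.5 in cold.

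Of the inflammatory cytokine and NF-kB genes 3 of 19 rose and 1 fell in C57, with a median of 0.20. Over both lines 9 of 19 were higher and 1 lower with a median of 0.61. Within the Adrb1 line 13 were higher and 2 lower with a median of 1.5, beside 24.9% and 18.6% of all genes tested in both lines. Tnf rose by 1.81 ± 0.48 (adjusted p = 0.043) and the interleukin 1 receptor antagonist gene Il1rn by 3.16 ± 0.73 (adjusted p = 0.0286). Il1b was at 759 and 477 CPM against 788 and 563 and did not pass (-0.02 ± 0.33, adjusted p = 0.978). Il6 fell in C57, from 72.9 and 36.4 CPM to 8.95 and 5.11 (-2.97 ± 0.46, adjusted p = 0.0080), and rose in the Adrb1 line from 5.54 and 8.75 to 13.4 and 20.5 (1.78 ± 0.59, adjusted p = 0.0386).

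Of 20 cell cycle genes in C57 only Mcm6, a helicase subunit of replication, was called in C57 (1.87 ± 0.51, adjusted p = 0.0492), although the median of the list was 2.22. Over both lines 7 of 13 measured were higher and none lower, with a median of 1.40. Within the Adrb1 line 6 of 12 were higher, beside 24.9% of all genes tested in both lines. The share of monocytes with at least 2 cell cycle counts was 9.61% to 19.0% in cold and 11.0% to 21.2% at RT, a difference of -2.32 points with an exact permutation p of 0.457. In T cells the shares were higher, from 20.9% to 44.6%. Without thinning the difference was -25.5 points with p = 0.0286 in the exact permutation test. The median depth was 5799 and 6791 counts per cell in WT and KO RT against 4200 and 6067 in WT and KO cold. In C57 the cold cells were the deeper ones, at 4428 and 4553 against 3790 and 4238 counts per cell, and the share without thinning was 51.6% and 58.7% in cold against 73.5% and 76.4% at RT.

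**Figure D4:**
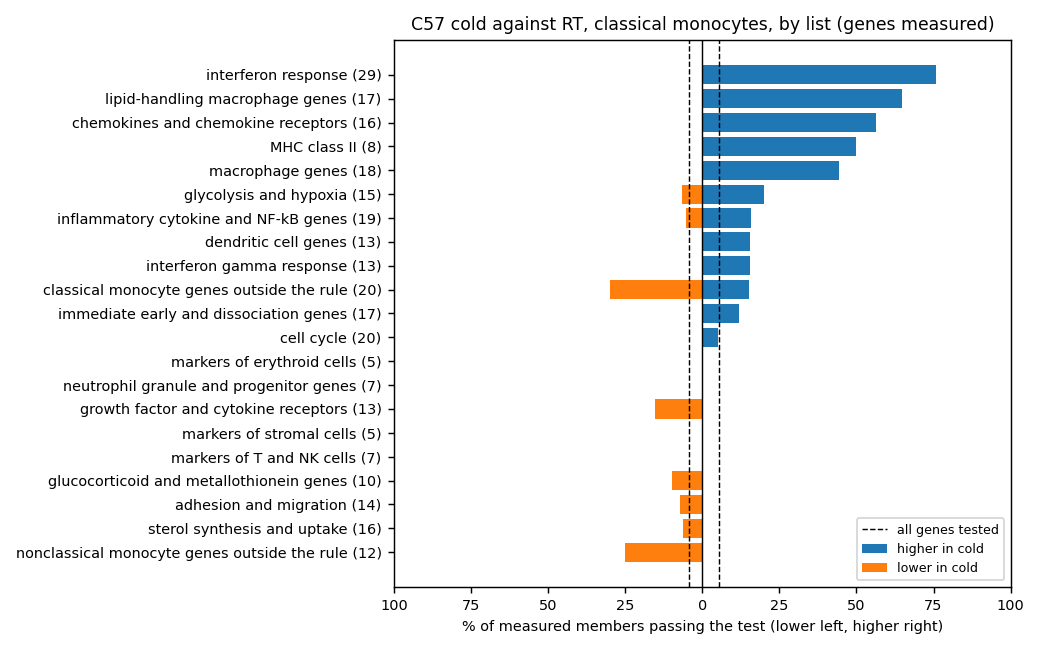
Bars show the share of measured members (%) of each gene list that were higher (right) or lower (left) in cold than at RT in classical monocytes of C57 mice, with the number measured in brackets; dashed lines mark the share of all genes tested, 5.22% higher and 4.39% lower. Interferon response, lipid-handling, chemokine, MHC class II and macrophage lists reach furthest to the right.

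The lines were measured in separate mice of different sex, and the RT libraries of the Adrb1 line also differed in kit version. Of 389 genes higher in cold in C57 and tested in both, 320 (82.3%) were also higher in the Adrb1 line. There 24.9% of the 7561 genes tested in both lines were higher. The 320 make up 17.0% of the genes higher in the Adrb1 line among those tested in both. Of 331 lower genes 175 (52.9%) were lower in the Adrb1 line, against 18.6% of the genes tested in both. The 175 make up 12.4% of its lower genes among those tested in both. For 57 genes called in both the signs were opposite. Glycolysis genes were called in more members in the Adrb1 line (14 of 15 measured in both were higher, against 3 in C57), as were sterol synthesis genes (9 of 16 against none). Kit version and collection day change with temperature in that line, so they cannot be told apart from it there.

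The test of CL against RT called 0 of 7746 genes (0% in either direction) by edgeR, with 775 at an unadjusted p under 0.05 and 35 by DESeq2. With the replicate number as a block it called 7, without CL replicate 2 it called 127 and without C57 cold replicate 1 it called 8. The median log2 change was 1.64 for chemokines, 1.5 for macrophage genes, 0.67 for interferon response genes (28 of 29 above 0) and 0.61 for lipid-handling genes, with 0.015 for all genes. In the same comparison, which shares its RT libraries with cold against RT, stromal markers had a median of 2.51 (5 of 5 above 0, or 2.30 with bounds), neutrophil granule genes 1.75 and T and NK markers -2.37 (0 of 7 above 0), and their part was not tested. CL replicate 1 lay nearer to cold than CL replicate 2 for Spp1, Ccl2 and Ccl7.

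Tested directly, cold exceeded CL in 56 genes (0.723%) and was below it in 14 (0.181%), together 0.904% of 7746. The cold libraries are those of the comparison with RT. As a block the replicate number raised the count of calls from 70 to 206. Without CL replicate 1 it was 199, without CL replicate 2 it was 17, without C57 cold replicate 1 it was 15, without C57 cold replicate 2 or C57 RT replicate 1 it was 43. Interferon response genes had 6 of 29 members higher in cold (Ifit3, Isg20, Rsad2, Oasl1, Mx1 and Usp18) and lipid-handling genes 5 of 17 (Gpnmb, Lpl, Plin2, Cd9 and Ctsd). T and NK markers were above 0 in 7 of 7 (median 1.52) and erythroid markers in 5 of 5 (median 1.12), while B cell markers were below 0 in 4 of 4 (median -1.74) and stromal markers had a median of -1.61, none of them called, and their part was not tested. Lpl was at 367 and 304 CPM in cold against 122 and 121 under CL and 118 and 131 at RT, so the levels of CL and RT overlapped. Il7r, the interleukin 7 receptor gene, was at 93.5 and 63.9 CPM against 11.1 and 4.53 (3.33 ± 0.36, adjusted p = 0.0128). Genes lower in cold than under CL included Hp, at 342 and 293 CPM against 868 and 898 (-1.52 ± 0.24, adjusted p = 0.0286), Mcemp1, at 110 and 86.2 against 249 and 261, the granule protease gene Prtn3, at 8.6 and 9.58 against 77.4 and 55.3, and the acute phase gene Saa3, at 5.73 and 7.02 against 125 and 27.2.

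No gene of 8265 was called between KO and WT monocytes (0%), by edgeR or by DESeq2, with 204 and 90 genes at an unadjusted p under 0.05. With 1 library per genotype and temperature the test borrowed its spread from all 10 libraries. On simulated counts it recovered 12.5% of changes of 1 on the log2 scale and 89.5% of changes of 2. All 29 interferon response genes had a positive fitted KO-minus-WT difference, with a median of 0.79, and none was called. The 15 measured interferon gamma genes were positive as well (median 0.72), as were 7 of 8 T and NK markers (median 1.83) and 4 of 5 erythroid markers (median 2.15), none called, and their part in the difference was not tested. For Ifit3 that difference lay in the cold libraries (92.6 CPM in WT and 404 in KO) and not at RT (51.8 and 43.7).

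The response to cold differed between monocytes and C1q macrophages of the same C57 libraries, which are kept Lin+ cells with at least 5 counts of C1qa plus C1qb and under 2 of Ly6c2 (9596 cells in all). A class by treatment term with the library as a block called 1437 of 10297 genes, 786 with a change more positive in monocytes (7.63%) and 651 with one more negative (6.32%), and 909 without C57 RT replicate 1. In macrophages themselves 1742 genes were higher (15.2%) and 1696 lower (14.8%) in cold of 11434.

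The median change of the MHC class II genes had opposite signs in the classes. All 8 had a more positive change in monocytes, with a median difference of 3.68, and in macrophages 7 of 8 were lower in cold with a median of -1.98. The macrophages past the limit of 5 MHC class II counts went from 97.7% and 98.3% in C57 RT to 39.9% and 35.7% in C57 cold, so the class differed in makeup between the groups, and a change within cells and a change of makeup cannot be told apart in its values. Markers of other cells fell in the macrophages too, with 5 of 5 B cell markers (median -2.78), 5 of 6 T and NK markers (median -1.90) and 7 of 14 dendritic cell genes (median -1.12) lower in cold. In the class comparison 11 of 14 dendritic cell genes, 2 of 5 B cell markers and 3 of 5 stromal markers were more positive in monocytes, and the part of these cells was not tested. H2-Ab1 changed by 1.83 in monocytes and by -2.08 in macrophages, a difference of 4.15 ± 0.29 (adjusted p = 1.1e-07). Chemokines were also more positive in monocytes, 11 of 18 with 1 more negative (Ccl6) and a median difference of 3.79. Ccl2 changed by 3.72 in monocytes and by -0.28 (adjusted p = 0.347) in macrophages. The difference was 4.11 ± 0.28 (adjusted p = 1.04e-07).

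Interferon response and lipid-handling genes were called higher in cold in both classes. In macrophages 25 of 29 interferon response genes were higher in cold with a median of 1.88, and the change differed between the classes in 5 of 29, more positive in monocytes for Cxcl10 and Ifi207 and more negative for Irf7, Oas3 and Slfn1. Of the lipid-handling genes 15 were higher in macrophages with a median of 2.33, and 7 of 18 changed less in monocytes (Trem2, Plin2, Fabp5, Lgals3, Ctsd, Ctsl and Lipa) and 2 more (Cd36 and Cd9). Plin2 rose by 2.39 in monocytes and 3.33 in macrophages, and the difference was -0.84 ± 0.22 (adjusted p = 0.0164). Immediate early and dissociation genes, which also respond to cell isolation, were more positive in monocytes in 16 of 17. Egr1 changed by 0.64 (adjusted p = 0.20) in monocytes and -2.93 in macrophages.

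**Figure D5:**
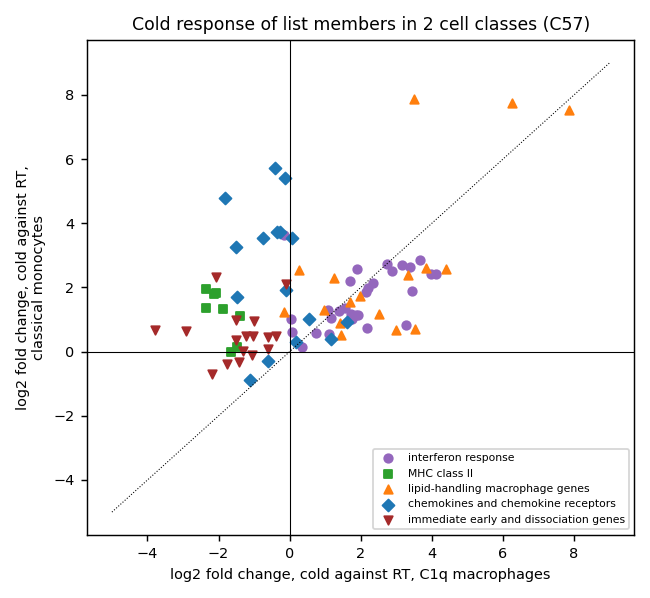
Each point is a gene of the named lists, with the log2 fold change of cold against RT in C1q macrophages on the x axis and in classical monocytes on the y axis (C57, 2 libraries per group); the dotted line marks equal change. MHC class II genes and most chemokines and immediate early genes lie left of 0 or near it on the x axis and above the line, and interferon response genes lie near the line.

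Nonclassical monocytes, taken as cells with at least 3 counts of Cd300e, Ace, Adgre4 and Treml4 together, a Csf1r count and under 2 counts each of Ly6c2 and C1q, held 29 to 72 cells per C57 RT or cold library, and their own cold contrast called 2 of 3054 genes (0.0655%). The change differed from that of classical monocytes in 101 of 5180 genes, 62 more positive in classical monocytes (1.2%) and 39 more negative (0.753%), and in 56 without C57 RT replicate 1. The 62 included 5 of 15 lipid-handling genes (Plin2, Cd36, Cd9, Ctsb and Ctsd), 3 of 8 MHC class II genes (H2-Aa, H2-Eb1 and Cd74) and the chemokines Ccl4, Ccl8, Cxcl2 and Cxcl16. No interferon response gene was called by this test. The 39 included 6 of 20 classical monocyte genes outside the rule (F13a1, Lyz2, Hp, Msrb1, Cd14 and S100a4), while 1 of the 20 (Ly6a) was among the 62. The 39 also included the hemoglobin genes Hba-a1, Hba-a2 and Hbb-bs, which erythroid cells make.

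Transcripts of other cell types were present in the summed monocytes at levels that varied by library. The erythroid list summed to 3.70 to 7329 CPM at RT and 1874 to 20064 in cold, and the T and NK list to 12.9 to 780 at RT and 90.3 to 670 in cold. Adipocyte markers summed to 5.54 to 165 CPM at RT and 92.6 to 212 in cold, stromal markers to 61.0 to 112 and 124 to 288, endothelial markers to 0 to 23.6 and 8.30 to 17.1, B cell markers to 157 to 320 and 108 to 199, and neutrophil granule genes to 185 to 363 and 163 to 564. In C57 none of the measured adipocyte (1), stromal (5), endothelial (1), T and NK (7), erythroid (5) and neutrophil (7) genes was called, and 2 of 4 B cell genes fell (Cd79b and Igkc). Over both lines the stromal gene Gsn (1 of 1 measured), the erythroid genes Hbb-bt and Alas2 (2 of 5) and S100a8, S100a9 and Lcn2 of the neutrophil list (3 of 7) were higher in cold, and 1 of 7 of the neutrophil list and 2 of 3 B cell genes were lower. Their part in the results above was not tested.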

How the data were processed

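Single-cell RNA-seq (10x) of stromal vascular cells of mouse iBAT was used from the 10 lineage-positive libraries. Per the submitters' processing notes the reads were aligned with Cell Ranger 3.0.1 to mm10. The values deposited by the authors are estimated counts (UMI counts after SoupX removed ambient RNA), of which 97.6% to 99.5% of those above 0 are not whole in each library. Cells with under 10% mitochondrial counts, under 15000 counts and 500 to 4000 genes were kept. The rule on 16 genes chose the members, and these, the gene lists and the tests were chosen with earlier results of these data known. No doublets were removed. Some genes are not reported here. Scrublet scores marked the top 6% of each library for an alternative.

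Counts of the members were summed per library, rounded to whole numbers and fitted with edgeR 4.0.16 (TMM scaling, filterByExpr, quasi-likelihood test, Benjamini-Hochberg adjustment, threshold 0.05) in R 4.3.3. The 6 C57 libraries shared a fit, both lines were fitted with the line as a term, KO against WT over the Adrb1 and C57 libraries, and the cell class comparison with the library as a block. DESeq2 1.42.0, RLE scaling, no filter on low counts, a replicate block, a stricter rule, a rule at 1000 counts per cell, removal of top doublet scores and leaving out each library were alternatives. Named genes were the 12 with the largest rise and fall of at least 20 CPM per comparison and up to 4 per list. Other genes with values in the text, such as Il1b, Trem2 and Egr1, were chosen after their values were seen. Shares of cells were compared with exact two-sided permutation tests over libraries, which took no account of the line. Intervals of shares are exact (Clopper-Pearson, 95%) and cover counting error only.

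The replicate numbers of C57 mice mark repeat experiments. Same-numbered libraries deviated from their group means with r = 0.156 for RT and cold, -0.0126 for RT and CL and 0.141 for cold and CL over 7757 genes. On simulated counts the C57 cold test recovered 90% of changes of 2 on the log2 scale and 5.5% of changes of 1 (7757 genes, 200 changed).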

Additional observations from a re-analysis of the deposited data

Results flagged for a closer look

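In 8 of 198 groups of 4 libraries a single library stood far from the other 3, by Dixon's test at the 95% level, which chance gives in about 1 of 20 groups. At RT, C57 replicate 2 stood above the others for Ccl7 (43.3 CPM), Nr1h3 (2.80 CPM), Pclaf (19.6 CPM) and Psmb9 (224 CPM). C57 RT replicate 1 stood above the others for Ccl8 (2.14 CPM) and Gpnmb (2.14 CPM) and below them for Ctsd (94.4 CPM). The levels of Ccl8, Gpnmb and Nr1h3 lie near the floor of these libraries, where very few counts set the value. In cold, C57 replicate 2 stood above the others for Txnip (69.0 CPM).

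The change with cold in C57 mice differed between classical monocytes and C1q macrophages in 1437 genes, and between classical and nonclassical monocytes in 101 genes, by the class by treatment term of edgeR.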

How the results depend on the processing

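Of 200 called values of named genes, none changed direction in the fits of the same comparison that gave a value for them. With the rule at 1000 counts per cell 125 passed and 44 did not. Of those called over both lines 90 passed and 5 did not within the Adrb1 line. Values called in the C57 comparisons were not set against the Adrb1 line in this check. Il6, Ifitm6 and Msrb1, called lower in C57 cold, were higher there, and 57 genes called in both lines had opposite signs. The 200 values pool C57 cold against RT, cold against CL, and cold against RT over both lines. Calls depended most on the small number of libraries. For C57 cold against RT, with 2 libraries per group, they depended most on C57 RT replicate 1. Counts of calls moved over 1.5 times as follows. C57 cold against RT gave 348 genes with the rule at 1000 counts per cell and 1406 with no filter on low counts. CL against RT gave 35 with DESeq2, 263 with no filter and 7 with the replicate block. Cold against CL gave 589 with no filter and 206 with the replicate block. Both lines gave 1186 with the rule at 1000 counts per cell, and KO against WT 51 with no filter. The replicate block changed no other count by over 1.5 times (945 genes for C57 cold against RT). The share of monocytes among Csf1r cells differed by 11.5 points between cold and RT. The interferon share differed by 14.6 points with no thinning and by 28.5 with the stricter rule, and the cell cycle share by -25.5 points with no thinning. The cause was not tested for any of these.

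Leaving out each library in turn gave 1 to 1074 genes for C57 cold against RT, 0 to 127 for CL against RT, 15 to 199 for cold against CL, 1455 to 2680 over both lines, 0 to 0 for KO against WT, 909 to 1454 against C1q macrophages and 56 to 94 against nonclassical monocytes. Differences in shares ranged over 5.37 to 7.77 points for monocytes over both lines, 1.66 to 4.14 for C57 cold, 1.00 to 2.46 for CL, 23.7 to 34.2 for interferon, 8.11 to 16.8 for MHC class II and -4.18 to -0.481 for cell cycle. KO RT held 34 monocytes, the fewest of the 10 libraries.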
